A study of Homo sapiens with 4 samples.

Results

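The KLHL and ZBTB genes encode proteins with a BTB domain, a fold through which these proteins dimerize and bind partners. Members were chosen by symbol alone, as protein-coding genes of GENCODE version 44 named KLHL or ZBTB with a number and optional letters. This gave 79 genes, 37 KLHL and 42 ZBTB, of 20046 protein-coding genes. The symbol does not always match the protein. ZBTB8OS is named for the strand opposite its neighbour, is not a BTB protein itself, and its 167-residue product held 0 zinc fingers, whereas the other ZBTB proteins each held at least 1.

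The modification N6-methyladenosine (m6A) was profiled by meRIP-seq in OE-19, an established cell line of adenocarcinoma of the esophagogastric junction (AEG), grown in RPMI1640 with 10% serum. In this assay, RNA is pulled down with an anti-m6A antibody and sequenced, and a peak is a stretch of the genome where reads exceed a local background. The series held 4 samples, 2 replicates of the m6A immunoprecipitation (IP) and 2 of the input, and the labels give no drug, genotype or time point. On preparation, the sources differ between cells fixed by UV light (labels) and total RNA cut into fragments (methods of the study), and which of these made the libraries is not settled. A peak list of each IP replicate was analysed, and none of the input, so there was 1 group with values and no comparison between conditions. The labels do not say whether the replicates were separate cultures. Replicate 1 had 24607 peaks and replicate 2 had 19318, and the median fold enrichment over all peaks was 5.27 and 5.08. The lists hold no read numbers, so the depth is unknown, and precision rests on how many peaks there are. Of 6 genes that mark epithelial carcinoma cells of the gut, only CDH1 had an exonic peak in both replicates, and EPCAM, KRT8, KRT18, KRT19 and ERBB2 had none. A peak shows that the RNA was present, whereas a gene without a peak may have lacked m6A, RNA or coverage, which cannot be told apart in these lists.

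Most KLHL proteins join the BTB domain to a kelch propeller and act as substrate adaptors of the CUL3 ubiquitin ligase, with the BTB domain on CUL3 and the propeller on the protein to be ubiquitinated. ZBTB proteins join the same domain to Cys2His2 zinc fingers and are DNA-binding transcription factors, many of them repressors that recruit corepressor complexes. m6A is deposited on nascent RNA by the METTL3-METTL14 complex at RRAC motifs (R is A or G), is typically frequent in long exons and near stop codons, and affects the stability, splicing and translation of mRNA.

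The sites below lie in the strongest peaks of both families and are shown to place the possible m6A core within the coding sequence. Each is 29 bases of the hg38 reference, read 5′ to 3′ on the strand of the gene in DNA letters. The capitals mark an RRAC core within 50 nt of the replicate 1 summit, the point of highest enrichment in a peak. In the first sites this is the GGAC nearest to the summit, as GGAC is the most frequent form of the core. A core of another form can lie nearer, as the AGAC in the KLHL11 site does.

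KLHL36: gccacggccagaGGACaagaagaagaaag

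KLHL11: gatgtggcagaaGGACcgcatcagacaga

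KLHL9: agtgccctcaaaGGACatttgtatgcagt

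KLHL21: tggcttcgagttGGACagtggcagcgatg

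KLHL25: cggagaacaggtGGACgatcaaggccgag

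ZBTB3: cacgcagtcaggGGACctctaccgccaca

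ZBTB4: agctcccgggccGGACggaggccctccac

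ZBTB18: tcccctgagggaGGACtcggtcttgaggg

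In another 5 of the 16 leading genes no GGAC lay within 50 nt of the summit, and the nearest core of another form is shown. GGAC was absent there in KLHL2, KLHL28 and ZBTB10 too, and for these no site is shown. KLHL28 had no RRAC core of any form within 50 nt, and the KLHL2 summit lay past the stop codon. These sites, and the GGAC sites of KLHL9, KLHL21, KLHL25, ZBTB3, ZBTB4 and ZBTB18, were added after the values had been seen.

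KLHL18: cagctctgtggcAGACcagtggtgcctga

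ZBTB21: aggcctgtccgaAAACccaactccagcca

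ZBTB14: ccatccagagcgAGACagaacagttgcag

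ZBTB2: aatgaggttgttAAACattcatgccaaaa

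ZBTB5: gtagtggggaatAGACactttaaagccca

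All 13 sites shown lie in coding sequence and within 1 exon. This describes the sites chosen and is not a result, as KLHL2, with its summit past the stop codon, was left out. The KLHL sites are KLHL36 at chr16:84662070-84662098 (plus strand, exon 5), KLHL11 at chr17:41853805-41853833 (minus strand, exon 2), KLHL9 at chr9:21333649-21333677 (minus strand, exon 1), KLHL21 at chr1:6593418-6593446 (minus strand, exon 4), KLHL25 at chr15:85768380-85768408 (minus strand, exon 2) and KLHL18 at chr3:47343707-47343735 (plus strand, exon 10). The ZBTB sites, all but ZBTB18 on the minus strand, are ZBTB3 at chr11:62752260-62752288 (exon 2), ZBTB4 at chr17:7462694-7462722 (exon 4), ZBTB18 at chr1:244054746-244054774 (plus strand, exon 2), ZBTB21 at chr21:41991053-41991081 (exon 3), ZBTB14 at chr18:5290915-5290943 (exon 4), ZBTB2 at chr6:151365657-151365685 (exon 3) and ZBTB5 at chr9:37442439-37442467 (exon 2). A motif match within 50 nt is a description of the letters near a summit and not a mapped m6A site. The distance from the marked core to the summit ranged from 1 nt in ZBTB2 to 47 nt in KLHL21 and ZBTB18.

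To ask how often these transcripts carried m6A, genes with an exonic peak summit were counted. Nearly all ZBTB genes had one, whereas KLHL genes stood near the level of other genes of their length. In replicate 1, 38 of 42 ZBTB genes (90.5%, 95% Wilson interval 77.9 to 96.2) and 19 of 37 KLHL genes (51.4%, 35.9 to 66.6) had an exonic peak, against a background of 42.4% of all protein-coding genes. In replicate 2, these were 37 ZBTB genes (88.1%, 75 to 94.8) and 16 KLHL genes (43.2%, 28.7 to 59.1), against 34.1%. The same 37 ZBTB and 16 KLHL genes had a peak in both replicates, against 33.4% of all protein-coding genes, and 38 and 19 had one in either replicate, against 43.1%. The intervals of the families did not overlap in any of these counts. They cover counting error only, and no test was made, since genes of a family are not replicates and the members were chosen with earlier results of these data known.

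Longer transcripts have more room for a peak, so each family was set beside other protein-coding genes of the same exonic length. Of such genes, 39.98% for ZBTB and 39.8% for KLHL had a peak in both replicates. ZBTB genes thus lay 48.1 percentage points above genes of their length and KLHL genes 3.42 points above. The KLHL gap was small and moved with the list, at 1.32 points in replicate 1 alone and 2.64 points in replicate 2 alone, where ZBTB had 40.9 and 47.3 points. It was 6.91 points for peaks at q of 1e-05 or less and 7.22 points for summits in exons of 1 gene only. When only peaks with a fold enrichment of 5 or more were counted, 33 ZBTB genes (78.6%) and 14 KLHL genes (37.8%) remained, beside 23.8% and 23.1% of genes of the same length. The gap was then 54.8 points for ZBTB and 14.7 points for KLHL, the largest KLHL gap of the settings run.

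**Figure D1:**
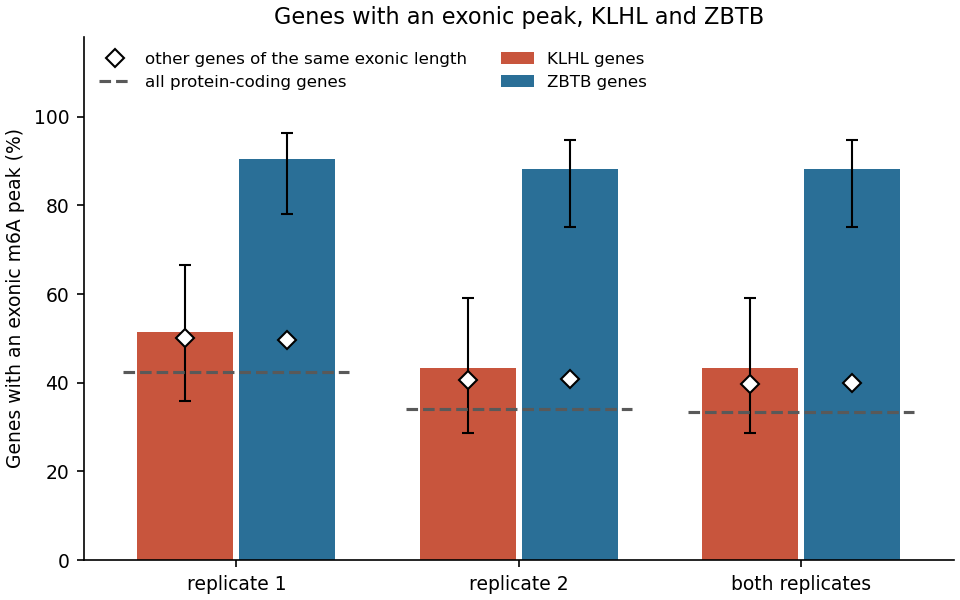
Percentage of KLHL (red, 37 genes) and ZBTB (blue, 42 genes) genes with an exonic m6A peak in replicate 1, in replicate 2 and in both, with 95% Wilson intervals as error bars, white diamonds for other protein-coding genes of the same exonic length and dashed lines for all protein-coding genes. The ZBTB bars stand at 88.1% to 90.5%, above the diamonds, whereas the diamonds lie within the error bars of KLHL.

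The families differed in gene structure. The median exonic length was 5740 nt in KLHL, 6200 nt in ZBTB and 4413 nt in other protein-coding genes. ZBTB genes had a median of 4 exons and KLHL genes of 7, beside 8 in other genes, and the longest exon had a median of 3828 nt in ZBTB, 2125 nt in KLHL and 1349 nt in other genes. The coding sequences were alike in length, with medians of 1807.5 nt in ZBTB and 1848 nt in KLHL. When genes were set beside others with a longest exon of the same length, a comparison chosen after the data had been seen, 44.7% of such genes had a peak in both replicates for ZBTB and 39.5% for KLHL. ZBTB genes then lay 43.4 points above and KLHL genes 3.78 points above, so this choice moved the ZBTB gap from 48.1 to 43.4 points.

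Within KLHL, the 16 genes with a peak in both replicates had a median exonic length of 6917.5 nt and the 18 with none a median of 4136.5 nt. KLHL had 6 genes between 2154 and 3609 nt, and 0 of them had a peak in both replicates. Between 3610 and 5341 nt, 4 of 10 KLHL genes had one (40%), between 5342 and 8031 nt 9 of 14 (64.3%), and above that 3 of 7 (42.9%). ZBTB showed no such order. Its shares over the same classes of length were 6 of 8 (75%), 10 of 10, 9 of 10 (90%) and 11 of 13 (84.6%), whereas in other genes the share increased from 26.1% through 35.4% and 44.6% to 48.8%. The shortest gene of both families, ZBTB12 with 1963 exonic nt, had 2 peaks in each replicate.

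**Figure D2:**
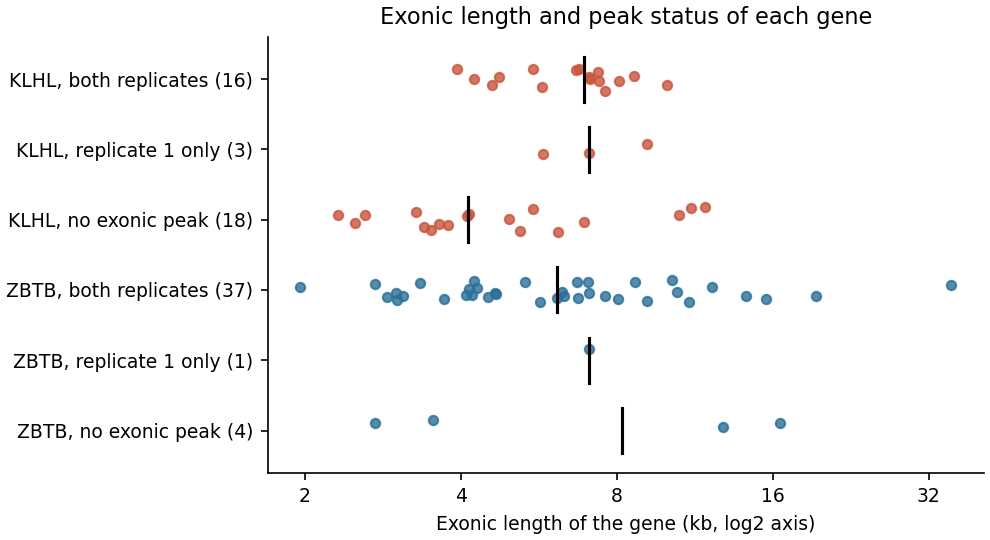
Exonic length in kb (log2 axis) of each KLHL (red) and ZBTB (blue) gene, in rows by whether it had an exonic peak in both replicates, in replicate 1 only or in neither, with a black bar at each row's median. KLHL genes with a peak in both replicates had a median of 6917.5 nt and those with none 4136.5 nt, while the 37 ZBTB genes with a peak in both spread from 1963 to 35362 nt.

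The members without an exonic peak in either replicate were 18 KLHL and 4 ZBTB genes. In KLHL these were KLHL1, KLHL3, KLHL4, KLHL6, KLHL10, KLHL12, KLHL13, KLHL14, KLHL17, KLHL29, KLHL30, KLHL32, KLHL33, KLHL34, KLHL35, KLHL38, KLHL40 and KLHL41. Among them, KLHL10 is known from testis, KLHL6 from B cells, KLHL1 and KLHL17 from brain, and KLHL40 and KLHL41 from skeletal muscle. Not all are of this kind, as KLHL13 is grouped below with the adaptors of cell division and KLHL12 with those of signalling and trafficking. In ZBTB only ZBTB8B, ZBTB8OS, ZBTB16 and ZBTB32 had none, and ZBTB16 (PLZF) and ZBTB32 are factors of lymphoid cells. Other members known from blood cells or brain, such as ZBTB1, ZBTB7B, ZBTB24, ZBTB46, ZBTB18 and ZBTB20, had a peak in both replicates. Levels of these RNAs were not analysed here.

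Another 4 genes had a peak in replicate 1 only, each a single weak to moderate one. KLHL7, a gene mutated in retinitis pigmentosa, had a fold enrichment of 6.13 with the summit 7 nt before the stop codon. KLHL31, a muscle gene, had 4.81, and KLHL5 had 4.01. ZBTB8A had 3.65, in a stretch that an exon of another annotated gene, ENSG00000254553, also covers. No member had an exonic peak in replicate 2 only.

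The KLHL genes were also described by role, beside the 33.4% of all protein-coding genes. Among the adaptors of cell division, KLHL9, KLHL18, KLHL21, KLHL22 and KLHL42 had a peak in both replicates and KLHL13 had none, which made 5 of 6. These 6 genes had exonic lengths of 4607 to 7594 nt, and the counts by role were not matched on length. KLHL9, KLHL13 and KLHL21 are known for Aurora B, KLHL18 for Aurora A, KLHL22 for PLK1 and KLHL42 for the microtubule-severing protein katanin. Of the adaptors for signalling, trafficking, translation and filament proteins, KLHL15, KLHL20, KLHL24 and KLHL25 had a peak in both replicates, 4 of 6, with KLHL7 in replicate 1 only and KLHL12 in neither. The largest fold enrichment in that group was that of KLHL25, an adaptor for the translation repressor 4E-BP1, with 10.0 in replicate 1 and 8.58 in replicate 2. Of the adaptors for WNK kinases, KLHL2 had a peak and KLHL3 had none. None of 3 muscle genes and none of 4 neural or lymphoid KLHL genes had a peak in both replicates.

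Close relatives could thus differ. KLHL9 and KLHL13, and KLHL2 and KLHL3, are paralogues with shared substrates, and in each pair only the first had an exonic peak. KLHL3 had an exonic length of 11853 nt and KLHL13 of 6928 nt, and their partners of 3929 nt in KLHL2 and 5740 nt in KLHL9, so by summed exonic length the longer gene of each pair was the one without a peak. The transcripts with the longest coding sequence had the same order in KLHL2 (2442 nt) and KLHL3 (6805 nt), but the reverse in KLHL9 (5740 nt) and KLHL13 (2353 nt).

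The ZBTB roles were almost all covered. The factors that bind methylated CpG (ZBTB4, ZBTB33, also called Kaiso, and ZBTB38) had a peak in both replicates in 3 of 3 cases, as did the factors of proliferation (ZBTB2, ZBTB7A and the MYC partner ZBTB17, also called MIZ-1) in 3 of 3, those that bind telomere repeats (ZBTB10 and ZBTB48) in 2 of 2, and those of brain development (ZBTB18 and ZBTB20) in 2 of 2. Of the factors of blood cell development, ZBTB1, ZBTB7B, ZBTB24 and ZBTB46 had a peak in both, 4 of 6, while ZBTB16 and ZBTB32 had none. The 3 paralogues ZBTB7A, ZBTB7B and ZBTB7C all had one, as did the related pair ZBTB18 and ZBTB42. All these counts stand beside the 33.4% of all protein-coding genes.

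BTB proteins of the same build under other symbols were examined in the same way. Of 14 kelch or related adaptors, 10 had a peak in both replicates (71.4%), and of 8 zinc finger factors, 5 had one (62.5%), beside the 33.4% of all protein-coding genes. The strongest of the zinc finger group was ZNF131, whose fold enrichment was 24.8 (replicate 1) and 18.5 (replicate 2). In the kelch group, the largest value was 16.9 in KBTBD6 in replicate 1 (7.16 in replicate 2). In replicate 2 it was 18.8 in KBTBD11 (11.4 in replicate 1). Each value is the largest of that replicate, and the peaks were not paired here. KEAP1, the adaptor that controls NRF2, had weaker peaks of 5.16 and 3.11. BCL6, the lymphoid repressor, had a peak of 3.78 in replicate 1 only. Beside these shares stand the 43.2% of KLHL and the 88.1% of ZBTB, and no difference between them was tested. Of 6 genes of the CUL3 ligase, 3 had a peak in both replicates, also beside 33.4%. The strongest in replicate 1 was in CAND1, an exchange factor of cullin ligases (7.14 and 3.58). The strongest in replicate 2 was in DCUN1D1 (4.71 and 4.20). CUL3 itself had a peak in replicate 1 only, with a fold enrichment of 3.67.

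Genes with peaks often had several. The mean number of exonic peaks per KLHL gene with a peak was 2.79 (replicate 1) and 2.31 (replicate 2), and in ZBTB genes 2.97 and 2.59, against 2.28 and 1.84 in all protein-coding genes with a peak. At least 3 peaks were found in 21 ZBTB genes in replicate 1 (55.3% of those with a peak) and 9 KLHL genes (47.4%), against 32.01% of all protein-coding genes. In replicate 2 the numbers were 16 (43.2%) and 6 (37.5%), against 20.2%.

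The most peaks in KLHL were in KLHL28 in replicate 1, with 7 against 6 in KLHL21, and in KLHL21 in replicate 2, with 5 against 4 in KLHL28. Of the 7 in KLHL28, 2 lay in exons outside the transcript with the longest coding sequence, and 1 of these, with a fold enrichment of 11.1, was also in an exon of TOGARAM1. In ZBTB, ZBTB38 and ZBTB40 had 7 peaks each in replicate 1. ZBTB38, a methyl-CpG binder, had 4 in replicate 2, and all of its summits fell in a last exon of 7404 nt. The 6 peaks of ZBTB40 in replicate 2 had fold enrichments between 3.32 and 8.13, and 3 of them lay in the 3′ UTR.

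Fold enrichment in the members was compared with all exonic peaks. In replicate 1, the median was 6.01 over 53 KLHL peaks and 6.76 over 112 ZBTB peaks, against 5.21 over all protein-coding genes. In replicate 2, it was 5.65 over 37 KLHL peaks and 5.04 over 95 ZBTB peaks, against 4.72. Both families lay above all protein-coding genes in both replicates, but their order relative to each other turned between the replicates. Most of these peaks overlapped a peak of the other replicate, 69.8% of KLHL and 79.5% of ZBTB peaks of replicate 1 against 60.6% of all exonic peaks in protein-coding genes, and 94.6% and 96.8% of replicate 2 against 95.9%.

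For each gene, the strongest pair of overlapping exonic peaks, 1 from each replicate, was then taken. The median geometric mean of its fold enrichments was 8.68 over 16 KLHL genes and 8.49 over 37 ZBTB genes, against 6.55 over 6620 protein-coding genes with such a pair. Since the strongest of several peaks was taken, a gene with more peaks had more chances of a large value. Replicate 1 had the larger value in 14 of 16 KLHL and 33 of 37 ZBTB genes, as in 81.4% of all genes with a pair, and the median log2 ratio of replicate 1 to replicate 2 was 0.62 in KLHL, 0.51 in ZBTB and 0.44 in all. Across genes, which are not independent replicates, the log2 fold enrichments of the replicates correlated with r = 0.68 over 16 KLHL genes, 0.62 over 37 ZBTB genes and 0.71 over all 6620.

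**Figure D3:**
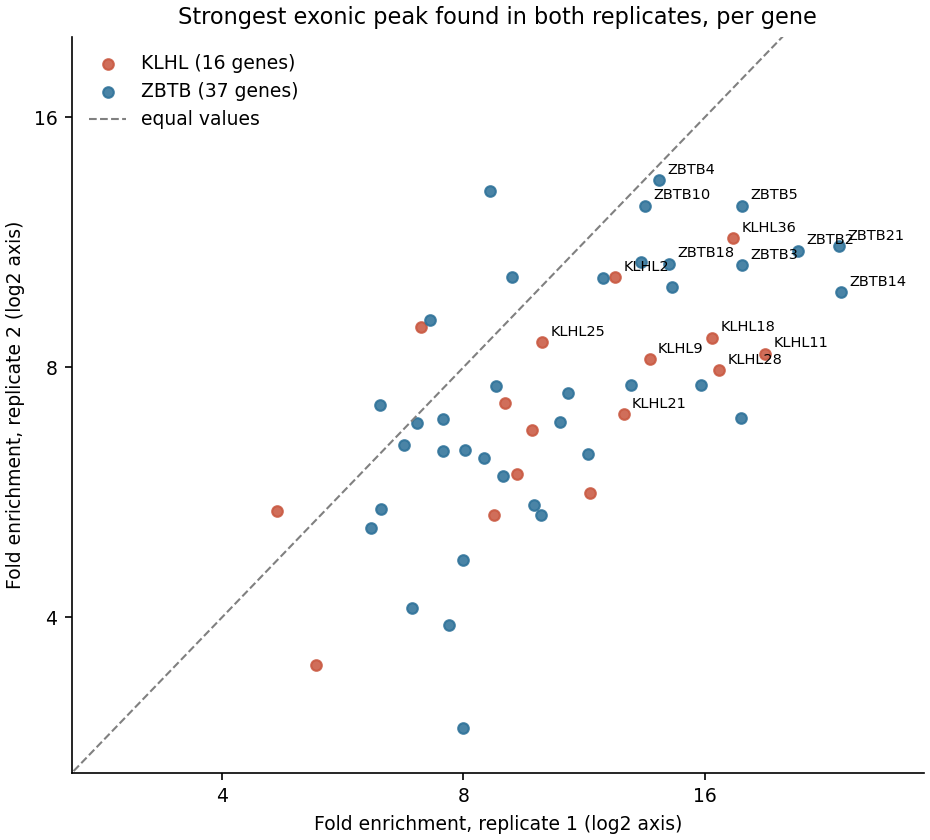
Fold enrichment in replicate 1 (horizontal) and replicate 2 (vertical), both on log2 axes, of the strongest exonic peak pair of 16 KLHL (red) and 37 ZBTB (blue) genes, with the 8 leading genes of each family named and a dashed line at equal values. Most points lie below the line, 14 KLHL and 33 ZBTB genes, since replicate 1 had the larger values.

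The leading KLHL gene was KLHL36, whose fold enrichment was 17.3 (replicate 1) and 11.4 (replicate 2), at the percentile 96.5 of all genes with a pair. Its peaks met at chr16:84661522-84662313 mostly in the last exon, with summits 3 nt apart and just before the stop codon, and the GGAC printed above for KLHL36 lies 11 nt from the replicate 1 summit. KLHL11, known as a target of autoantibodies in paraneoplastic encephalitis, had 19.0 and 8.31 at chr17:41853644-41854918. This was the largest imbalance between replicates in KLHL, with a log2 ratio of 1.19. KLHL18, the Aurora A adaptor, had 16.4 and 8.69 at chr3:47343608-47344904, where the replicate 1 summit lay before the stop codon and the replicate 2 summit 544 nt away in the 3′ UTR. In a peak of that width, the summit does not mark 1 site. KLHL28 had 16.7 and 7.94 at chr14:44928901-44929152 with both summits before the stop codon, and no GGAC lay in that interval.

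KLHL2, the WNK adaptor, had a single narrow peak just after the stop codon at chr4:165322036-165322272, with 12.4 and 10.3, the closest values of the replicates among the first 7 KLHL genes. KLHL9 is a gene of 1 exon of 5740 nt, and its peak at chr9:21332985-21334595 had 13.7 and 8.18 with both summits in the second part of the coding sequence, at codons 409 and 400. No exon junction lies in this gene. KLHL21, the Aurora B adaptor, had 12.7 and 7.03 at chr1:6592631-6593719 before the stop codon, and 4 other peaks that both replicates had in common, 3 in coding exons and 1 in the 3′ UTR. KLHL25 had 10.0 and 8.58 at chr15:85768024-85768506, inside an internal exon of 1804 nt that holds the end of its coding sequence.

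ZBTB21 led its family with 23.5 in replicate 1 and 11.2 in replicate 2 at chr21:41990821-41991336, at the percentile 98.6. Its 5 peaks of replicate 1 and 6 of replicate 2 were all in the coding part of its last exon of 7278 nt. ZBTB14 (ZF5) had only 1 peak in each replicate, with 23.7 and 9.86 at chr18:5290611-5291512, over all the zinc fingers found in it and the stop codon region. ZBTB2, a repressor linked to the p53 pathway, had 20.9 and 11.1 at chr6:151365303-151366158 with summits 2 nt apart. In these 3 genes replicate 1 had the clearly larger value, with log2 ratios of 1.07 in ZBTB21, 1.26 in ZBTB14 and 0.92 in ZBTB2.

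ZBTB5 had 17.8 and 12.5 at chr9:37441906-37442564, with the summits of both replicates on the same base, at codon 47, near the start of the coding sequence. ZBTB3 had a single peak with 17.8 and 10.6 at chr11:62752145-62753102. ZBTB4, the methyl-CpG binder, had 14.04 and 13.4 at chr17:7462401-7463869, and a further peak near the start of the coding sequence with 15.5 and 6.87. ZBTB10, the telomere repeat binder, had 13.5 and 12.5 at chr8:80519358-80519610, and ZBTB18, a repressor of cortical development, 14.4 and 10.7 at chr1:244053881-244055347. The values of ZBTB4 and ZBTB10 differed little between replicates, with log2 ratios of 0.06 and 0.11.

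The least balanced pair was that of ZBTB17, with 7.99 in replicate 1 and 2.94 in replicate 2 at chr1:15941995-15942164 (log2 ratio 1.44). ZBTB6 went the other way, with 8.63 and 13.0 (log2 ratio −0.59), and so did KLHL42 with 7.08 and 8.94 (−0.34). The weakest pair in KLHL was in KLHL8, with 5.24 and 3.50.

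The common interval of the paired peaks was long. Its median was 542 nt in KLHL and 649 nt in ZBTB against 410 nt in all genes with a pair, and it reached 1000 nt or more in 5 KLHL genes (31.3%) and 11 ZBTB genes (29.7%), against 12.7%. The paired summits lay within 100 nt of each other in 13 KLHL (81.3%) and 28 ZBTB genes (75.7%), against 86.0%. The density of GGAC in the intervals had a median of 5.65 per kb in KLHL and 4.69 per kb in ZBTB, against 5.73 per kb, so these long peaks did not hold GGAC more densely. Some peaks could not be given to 1 gene: KLHL22, KLHL28, KLHL42, ZBTB1, ZBTB8A, ZBTB10, ZBTB11, ZBTB25 and ZBTB46 each had at least 1 summit in an exon that another gene also covers, and a single peak served ZBTB1 and ZBTB25. The lists carry no strand.

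The position of the summits was compared with the length of each region of the transcript. Coding sequence held more summits than its length share in both families and both replicates. In replicate 1, 58.0% of KLHL summits (29 of 50, interval 44.2 to 70.6) and 53.2% of ZBTB summits (59 of 111, 43.9 to 62.2) lay in coding sequence, which made up 41.1% and 37.9% of the length, while 48.9% of all summits lay in 46.1% of the length. In replicate 2, these shares were 62.2% in KLHL and 57.4% in ZBTB, against 47.8% in all. The 3′ UTR beyond the stop codon window held 14% of KLHL and 16.2% of ZBTB summits in replicate 1, although it made up 44.1% and 48.6% of their length, against 17.5% of summits in 35.7% of the length for all.

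The window from 200 nt before to 200 nt after the stop codon held 22% of KLHL summits (interval 12.8 to 35.2) and 21.6% of ZBTB summits (15.0 to 30.2) in replicate 1, in 10.2% and 7.86% of the length. For all protein-coding genes this was 24.6% in 11.2%. In replicate 2, it held 24.3% (interval 13.4 to 40.1) of KLHL and 19.1% (12.5 to 28.3) of ZBTB summits, against 27.2% in all. The window then made up 10.1%, 7.81% and 10.6% of the length. Both families thus lay below all genes in both replicates, though the share of all genes lay within each of these intervals. In the 5′ UTR lay 6% of KLHL and 9.01% of ZBTB summits in replicate 1, against 8.94% in all, and 2.70% and 7.45% in replicate 2, against 5.77%.

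**Figure D4:**
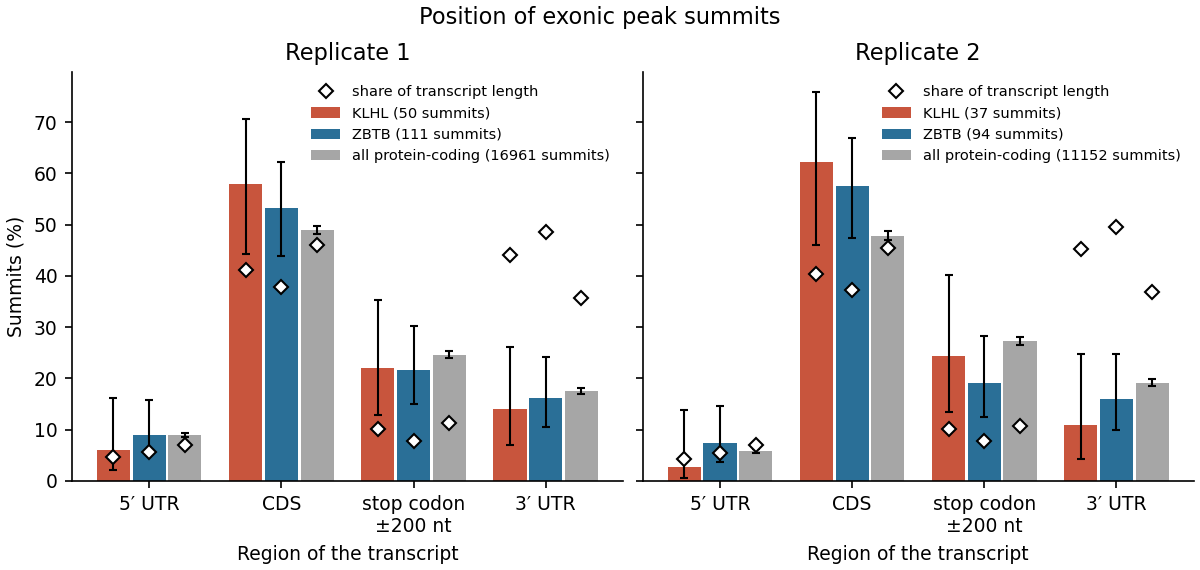
Percentage of exonic summits in the 5′ UTR, coding sequence (CDS), stop codon window and 3′ UTR for KLHL (red), ZBTB (blue) and all protein-coding genes (grey) in each replicate, with 95% Wilson intervals as error bars and white diamonds for the share of transcript length in that region. Coding sequence stands above its diamond and the 3′ UTR below it in both families.

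Since the DNA-binding and substrate-binding parts lie toward the end of these proteins, summits were placed along the coding sequence. The last of 3 equal parts of the coding sequence held 46.2% of coding summits in KLHL (18 of 39, interval 31.6 to 61.4) and 41.8% in ZBTB (33 of 79, 31.5 to 52.8) in replicate 1, against 39.9% in all protein-coding genes. In replicate 2, it held 53.3% (36.1 to 69.8) and 41.4% (30.6 to 53.1), against 41.98%. The share of all protein-coding genes lay within each of these intervals. These counts include the coding side of the stop codon window. In ZBTB, the stretch after the last zinc finger held 24.1% of coding summits (19 of 79, interval 15.97 to 34.5) in replicate 1 and 24.3% (15.8 to 35.5) in replicate 2, where it made up 11.2% and 11.5% of the coding length. The stretch from the first to the last finger held 20.3% and 18.6%, in 28.4% and 27.5% of the length, and the part before it, which codes for the BTB domain and the linker, 55.7% and 57.1%, in 60.5% and 61.0%. Most summits after the last finger lay in the stop codon window in both replicates. Whether they exceeded what that window holds in other genes was not tested. Zinc fingers were found from the classical spacing of cysteines and histidines in the translated sequence, and atypical fingers are missed.

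**Figure D5:**
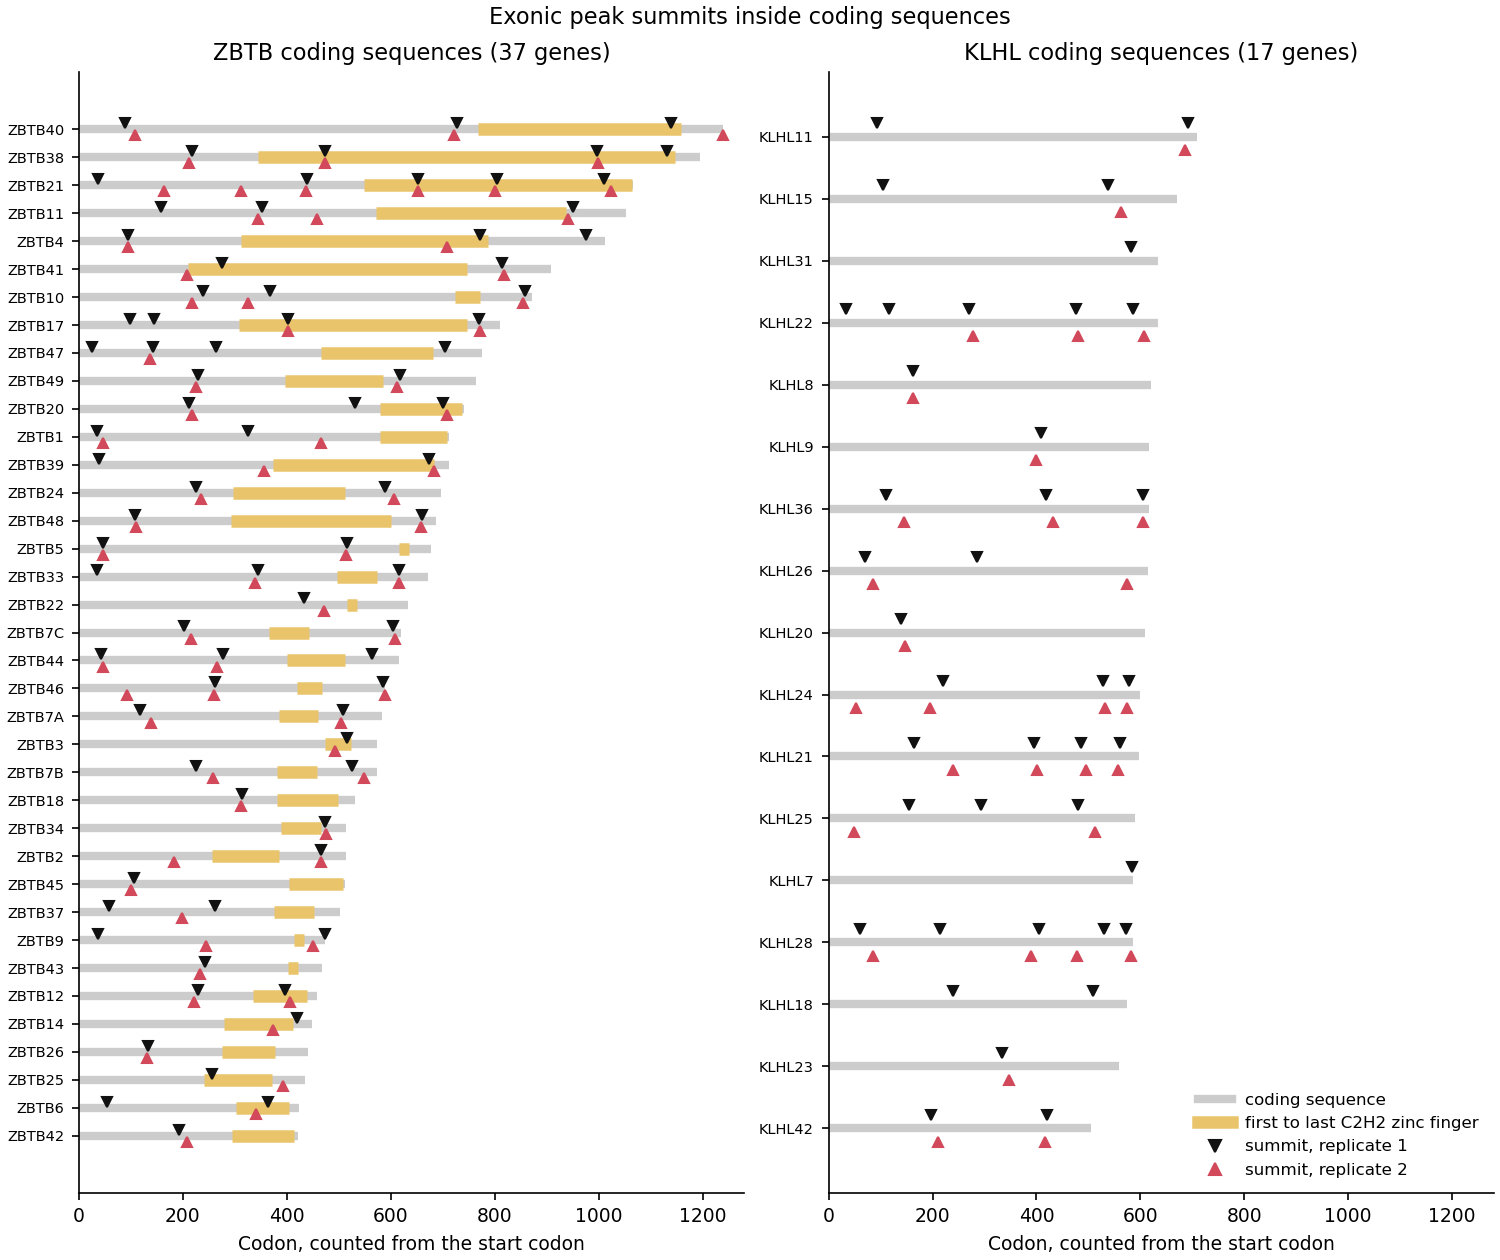
Summits of replicate 1 (black, pointing down) and replicate 2 (red, pointing up) along the coding sequences of 37 ZBTB genes (left) and 17 KLHL genes (right), as codons from the start codon, with coding sequence in grey and the stretch from the first to the last zinc finger in yellow. In ZBTB, 24.1% of the summits of replicate 1 lie past the yellow stretch, most of them in the stop codon window. Summits of the replicates often fall on the same place.

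Summits were also placed by exon. In replicate 1, 78.0% of KLHL and 87.4% of ZBTB summits lay in exons of 400 nt or more, which made up 84.1% and 86.6% of the length, against 75.03% in 67.4% for all protein-coding genes. In replicate 2, these were 81.1% in 83.1% for KLHL, 92.6% in 87.9% for ZBTB and 88.8% in 71.3% for all. KLHL summits thus lay below the length share of long exons in both replicates, whereas those of ZBTB and of all genes lay above. In both families the length share lay within the 95% interval of the summits in each replicate. These intervals were 64.8 to 87.2 and 65.8 to 90.5 for KLHL, and 79.9 to 92.3 and 85.4 to 96.3 for ZBTB. Long exons made up more of the length in both families than in all genes, which left less room for an excess. The last exon held 62.2% of ZBTB summits in replicate 1 but 36% of KLHL summits, against 48.6% in all, while internal exons held 27.9%, 48.0% and 35.1%. These values were not set beside the length shares of last and internal exons, and the families differed in exon length, as given above. The internal exons with a summit in replicate 1 had a median length of 561.5 nt in KLHL and 1074 nt in ZBTB. Among genes with several exons, 83.0% of KLHL and 91.7% of ZBTB summits were 100 nt or more from the nearest exon junction in replicate 1, beside 78.3% and 84.9% of the length, and 81.2% beside 65.1% for all.

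In both families the longest exon held less than its share of the length. In replicate 1, it held 42.6% of KLHL summits in 59.7% of the length and 63.9% of ZBTB summits in 75.1%, against 53.9% in 54.8% for all protein-coding genes. In replicate 2, it held 42.9% of KLHL summits in 60.9% of the length and 68.1% of ZBTB summits in 77.02%, whereas for all protein-coding genes it held 64.1% in 57.1%.

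The GGAC core was searched up to 50 nt from each summit, on the strand of the gene only. The bases were those of the genome, so near an exon junction the window can take in intron. It was found at 52.8% of KLHL summits (28 of 53, interval 39.7 to 65.6) and 42.5% of ZBTB summits (48 of 113, 33.8 to 51.7) in replicate 1, against 49.7% of all summits in protein-coding genes. In replicate 2, it was found at 43.2% (interval 28.7 to 59.1) and 41.7% (32.3 to 51.7), against 51.7%. A summit in exons of ZBTB1 and ZBTB25 counts here for each of them. ZBTB lay below all genes in both replicates, and KLHL lay above in the first and below in the second. The share of all genes lay within each of these intervals, though only just for ZBTB in replicate 2. AAAC was found at 24.8% of ZBTB summits in replicate 1 and 34.4% in replicate 2, against 24.6% and 28.5% in all, and at 7.55% and 18.9% of KLHL summits. At least 1 of the 4 forms of RRAC lay within 50 nt of 83.0% of KLHL and 78.8% of ZBTB summits in replicate 1, against 84.3% in all, and of 75.7% and 83.3% in replicate 2, against 87.2%.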

How the data were processed

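meRIP-seq peak lists of 2 m6A IP replicates of OE-19 cells were analysed, grouped by the sample labels. For library preparation, the study's methods describe DNase-treated, fragmented total RNA, whereas the labels describe UV-fixed, lysed cells. For mapping to hg38, the methods name TopHat2 and the submitters' processing notes HISAT2 with fastp. Both name MACS2 (default settings per the methods). Versions, and whether the input served as the control, are not given in the sources used here. The authors deposited per peak a fold enrichment (a ratio over the caller's background), −log10 of the p-value and q-value, a score, and the summit. The score and p-values were not used. The highest q was 0.0491 and 0.0497, under the caller's default limit of 0.05. Fold enrichment is set by the local background too and is not an m6A level.

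Summits (1-based) were assigned to every protein-coding gene of GENCODE version 44 with an exon at that base. The expected share at the same length is the mean, over members, of the share of other genes in the same of 20 bins of exonic length. Regions and exons were read on the transcript with the longest CDS, leaving out 3 KLHL and 2 ZBTB summits of replicate 1, and 0 and 2 of replicate 2, outside it. Stop codon distances count from its first base. Peaks overlapping by 1 bp or more were paired. Zinc fingers were pairs of Cys (2 to 4 residues between) and His (3 to 5 between) separated by 12 residues. Sequences came from hg38. Intervals are 95% Wilson intervals and cover counting error only.

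Members, role lists and alternatives were chosen with earlier results of these data known. The genes named were the 8 with the strongest peak pair in each family, those with most peaks, with a peak in 1 replicate only or with none, the role lists, and the largest replicate ratio. ZBTB12, the shortest member, ZBTB6, KLHL42 and KLHL8 (the extremes of the pairs) and the paralogue pairs were chosen after their values were seen. Alternatives were stricter q or fold enrichment, peak midpoints, summits in 1 gene only, equal list lengths, other windows, exon limits and length bins, and each replicate left out. No test was made. Scripts were tested on simulated data. Python 3.11.15, numpy 2.4.6, pandas 2.3.3, pysam 0.24.0, Biopython 1.88 and matplotlib 3.10.9 were used.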

Additional observations from a re-analysis of the deposited data

Results flagged for a closer look

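Summits in introns of the members lay outside the comparisons above and are given as values. Replicate 1 had 23 intronic summits in 14 member genes and replicate 2 had 14 in 10 genes, and 7 and 6 of them overlapped a peak of the other replicate. The members with an intronic summit were 17.7% in replicate 1 and 12.7% in replicate 2, beside 9.17% and 9.42% of all protein-coding genes, with no adjustment for intron length. No input peak list was analysed as a control. The median fold enrichment was 5.83 in replicate 1 and 5.09 in replicate 2. ZBTB46, a factor of dendritic cells, had 7 intronic summits in replicate 1 and 2 in replicate 2, of which 2 in each overlapped. The strongest was in ZBTB5, with a fold enrichment of 19.2 in replicate 1. The overlapping peak of replicate 2 had its summit on the last base of exon 1 and counted as exonic, with a fold enrichment of 10.3. KLHL1, which had no exonic peak, had 1 intronic summit in replicate 1 and 2 in replicate 2. Their origin was not tested.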

How the results depend on the processing

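For 10 results, 98 values under alternative settings were computed. Of these, 79 moved by less than the replicate spread or the interval, and 19 moved by more. A reversal was defined only for the gaps to genes of the same length, and 0 were found. The shares of KLHL and ZBTB genes with a peak in both replicates, and the gaps to genes of the same length, stayed within the interval under every alternative run for them. That interval is wide for KLHL, whose gap (3.42 points) ranged from 1.32 points without replicate 2 to 14.7 points when peaks under a fold enrichment of 5 were dropped, with 1.80 points by transcript length, 2.64 points without replicate 1, 6.91 points at q of 1e-05 or less and 7.22 points for summits in 1 gene only. The ZBTB gap (48.1 points) ranged from 40.9 to 54.8 points. With 1 replicate left out, the KLHL share ranged from 43.2% to 51.4%, the ZBTB share from 88.1% to 90.5% and the gap of both families together from 22.3 to 26.4 points (27.2 with both). The median fold enrichment of member peaks in replicate 1 (6.58) was 7.52 at q of 1e-05 or less, 8.31 at a fold enrichment of 5 or more and 7.55 for shared peaks only, and that of replicate 2 (5.37) was 7.39 at a fold enrichment of 5 or more, as stricter settings drop weak peaks. The share of ZBTB summits in coding sequence (53.2%) was 60% at a fold enrichment of 5 or more, 59.6% with midpoints, 65.8% and 47.7% with stop codon windows of 100 and 400 nt, and 57.4% without replicate 1. The share of member summits in exons of 400 nt or more (84.5%) was 89.3% at q of 1e-05 or less, 92.5% at a fold enrichment of 5 or more, 88.2% with equal numbers of peaks, 91.9% and 68.3% with limits of 200 and 1000 nt, and 89.3% without replicate 1. The share with GGAC (45.8%) was 39.9% with midpoints, 22.3% and 68.1% within 25 and 100 nt, and 42.1% without replicate 1. Where the setting is not itself a change of window or threshold, the cause was not tested. No paired analysis was possible because input peaks were not analysed here, which left 1 group. The lists hold no read numbers, so a missing peak cannot be set against depth.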
